A study of Mus musculus with 78 samples.

Results

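The genes described here are 38 enzymes, carriers and regulators of the tricarboxylic acid (TCA) cycle and of the entry of pyruvate into it, measured in the soleus of aging mice. They were chosen by mouse symbol, with no measured value in the rule, out of 36904 gene IDs in the deposited table. All 38 passed the filter on low counts, which left 18218 genes in the tests. The soleus is a postural hindlimb muscle rich in slow, oxidative fibres, and its RNA was sequenced in bulk from 78 libraries.

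Every mouse was of the C57Bl/6 strain, and the labels name no other allele. The labels' F and M were read as female and male, and M28 as 28 months. Labelled batch 1, all on control feed, had 4 replicates of females aged 6 months, and 6 each at ages of 12, 20 and 28 months. Its male replicates numbered 6, 6, 9 and 5 in the same order of age. Labelled batch 2 held 28-month mice only: 7 females and 10 males on control feed and 12 males given calcium alpha-ketoglutarate (CaAKG) at 2% of the feed. Alpha-ketoglutarate, also called 2-oxoglutarate, is itself an intermediate of the TCA cycle. Per the design text, the 6- and 12-month mice came from another supplier than the 20-month mice, so age and supplier cannot be told apart between those groups. The sources used here do not give a supplier for the 28-month mice.

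The TCA cycle runs in the mitochondrial matrix, where it oxidises acetyl groups to carbon dioxide and passes the electrons to the respiratory chain. Pyruvate made by glycolysis crosses the inner membrane through the mitochondrial pyruvate carrier and is turned into acetyl-CoA by the pyruvate dehydrogenase complex, which kinases switch off and phosphatases switch on. Pyruvate carboxylase and the malic enzymes link the pool of cycle intermediates with pyruvate, and oxidative muscles such as the soleus rely on the cycle for sustained work.

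Library totals ran from 19.5 to 81.6 (median 35.2) x 1e6 counts, and the mitochondrial genome took 10.05% to 46.52% of them. Sex-linked transcripts went against the label in 5 libraries (12-month female replicates 1 and 4, 6-month female replicate 3, 12-month male replicate 3 and 6-month male replicate 3). Another 9 libraries held over 100 CPM (counts scaled to 1000000 per library) of keratinocyte or neutrophil markers, called skin or marrow transcripts here: 28-month female batch 1 replicates 8, 10 and 12, 12-month female replicate 5, 28-month male control batch 2 replicate 4 and CaAKG replicates 6, 7, 8 and 10. All stayed in their labelled groups, and each count of members called by edgeR QL was also computed without these 14 libraries. The counts of cell markers and of genes from other lists used all libraries. The 10 slow-fibre markers, which check the labelled tissue, summed to 9340 to 54900 CPM, lowest in 12-month female replicate 4. In bulk tissue, fewer cells of a type and less RNA per cell cannot be told apart.

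Per kilobase of exon, the most abundant member over all 77 replicates was Idh2, the mitochondrial NADP-dependent isocitrate dehydrogenase, with a median level of 697 CPM per kb. Mdh1, the cytosolic malate dehydrogenase, followed at 453 CPM per kb, then the pyruvate dehydrogenase kinase Pdk4 at 263 CPM per kb and Pdha1, the catalytic alpha subunit of pyruvate dehydrogenase, at 258 CPM per kb. Citrate synthase, Cs, which catalyses the first step of the cycle, stood at 135 CPM per kb. The pyruvate carrier subunits Mpc1 and Mpc2 stood at 164 and 28.2 CPM per kb. Before division by their exon lengths of 2082 and 7344 bases, their medians were 342 and 207 CPM. Lowest were Pdk3, a pyruvate dehydrogenase kinase, at 0.735 CPM per kb, and Me2, the mitochondrial NAD-dependent malic enzyme, at 0.621 CPM per kb. Pdk4 and Pdpr, the regulatory subunit of pyruvate dehydrogenase phosphatase, had the largest ratios of highest to lowest level among the members detected in every replicate, running from 119 to 2817 CPM and from 7.86 to 204 CPM. Pdk3 ran from 0 to 5.66 CPM.

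The promoters of 4 members are shown to set Mpc1, lower in all 4 comparisons of 28 or 20 with 6 months, beside Fh1, the fumarase, lower in 3 of them, Ogdh, a 2-oxoglutarate dehydrogenase subunit that was higher at 20 months, and Cs, which passed in none. Each sequence is the 250 bases before a RefSeq start (GRCm38.p6), 5′ to 3′ on the strand of the gene. Capitals mark the GC box (GGGCGG) and the CCAAT box (CCAAT) on either strand.
Mpc1, chr17:8283537-8283786, plus strand: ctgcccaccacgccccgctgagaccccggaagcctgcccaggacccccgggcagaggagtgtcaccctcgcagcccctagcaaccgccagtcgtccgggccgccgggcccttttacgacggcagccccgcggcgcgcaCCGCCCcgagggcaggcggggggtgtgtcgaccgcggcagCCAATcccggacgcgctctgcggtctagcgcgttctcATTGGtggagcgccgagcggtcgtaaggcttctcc
Fh1, chr1:175625636-175625885, minus strand: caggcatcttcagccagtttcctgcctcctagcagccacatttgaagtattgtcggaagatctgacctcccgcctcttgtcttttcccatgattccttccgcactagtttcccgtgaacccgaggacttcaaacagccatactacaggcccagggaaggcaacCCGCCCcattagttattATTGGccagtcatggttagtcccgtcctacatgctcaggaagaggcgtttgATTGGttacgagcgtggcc
Ogdh, chr11:6291347-6291596, plus strand: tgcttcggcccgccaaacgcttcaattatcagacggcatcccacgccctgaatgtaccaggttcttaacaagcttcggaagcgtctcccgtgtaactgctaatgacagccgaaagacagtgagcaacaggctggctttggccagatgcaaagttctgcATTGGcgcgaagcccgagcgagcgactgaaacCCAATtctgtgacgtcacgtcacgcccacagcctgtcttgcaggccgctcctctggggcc
Cs, chr10:128337477-128337726, plus strand: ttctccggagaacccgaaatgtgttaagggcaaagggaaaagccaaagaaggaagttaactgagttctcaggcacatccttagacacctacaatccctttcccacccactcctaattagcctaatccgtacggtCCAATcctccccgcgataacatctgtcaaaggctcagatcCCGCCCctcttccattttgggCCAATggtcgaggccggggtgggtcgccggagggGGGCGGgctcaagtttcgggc

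RefSeq gave 45 such windows for 34 of the 38 members. At least 1 GC box lay in 27 of the member windows, and in 52.7% of the 15987 windows of tested genes. The CCAAT box lay in 23 member windows, against 34.4% of the windows of tested genes. The core of the site of NRF1, a regulator of nuclear genes for mitochondria, is spelled TGCGCA. It lay in 5 windows of 4 members (Ogdh, Sdha, Sdhd and Mpc2), against 9.9%. The Ogdh window printed above was not among those 5. AAGGTCA, the site of oestrogen-related receptors, lay in 0 of 45, against 3.1%. Both strands were searched, no motif holds another, and the letters of a window say nothing of whether a factor binds there.

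At 28 against 6 months in batch 1, the mitochondrial pyruvate carrier, the subunits of succinate dehydrogenase other than Sdha, Idh3b, Suclg1, Pdhb and Me3 were lower in both sexes. Mpc2 fell by 1.00 on the log2 scale in females and by 0.66 in males. In females 19 of 38 members fell and 1 rose by edgeR's quasi-likelihood test (edgeR QL) at an adjusted p of 0.05, where 18.9% of all genes tested passed, 9.04% lower and 9.91% higher. In males 9 fell and 0 rose, where 16.1% of all genes passed, 9.38% lower and 6.76% higher; at an unadjusted p of 0.05, 13 members passed in males, and by DESeq2 9 fell and 1 rose. The 9 members that fell in males were among the 19 that fell in females. The median log2 change of the members was -0.34 in females and -0.09 in males, beside 0.09 and 0.02 over all genes.

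**Figure D1:**
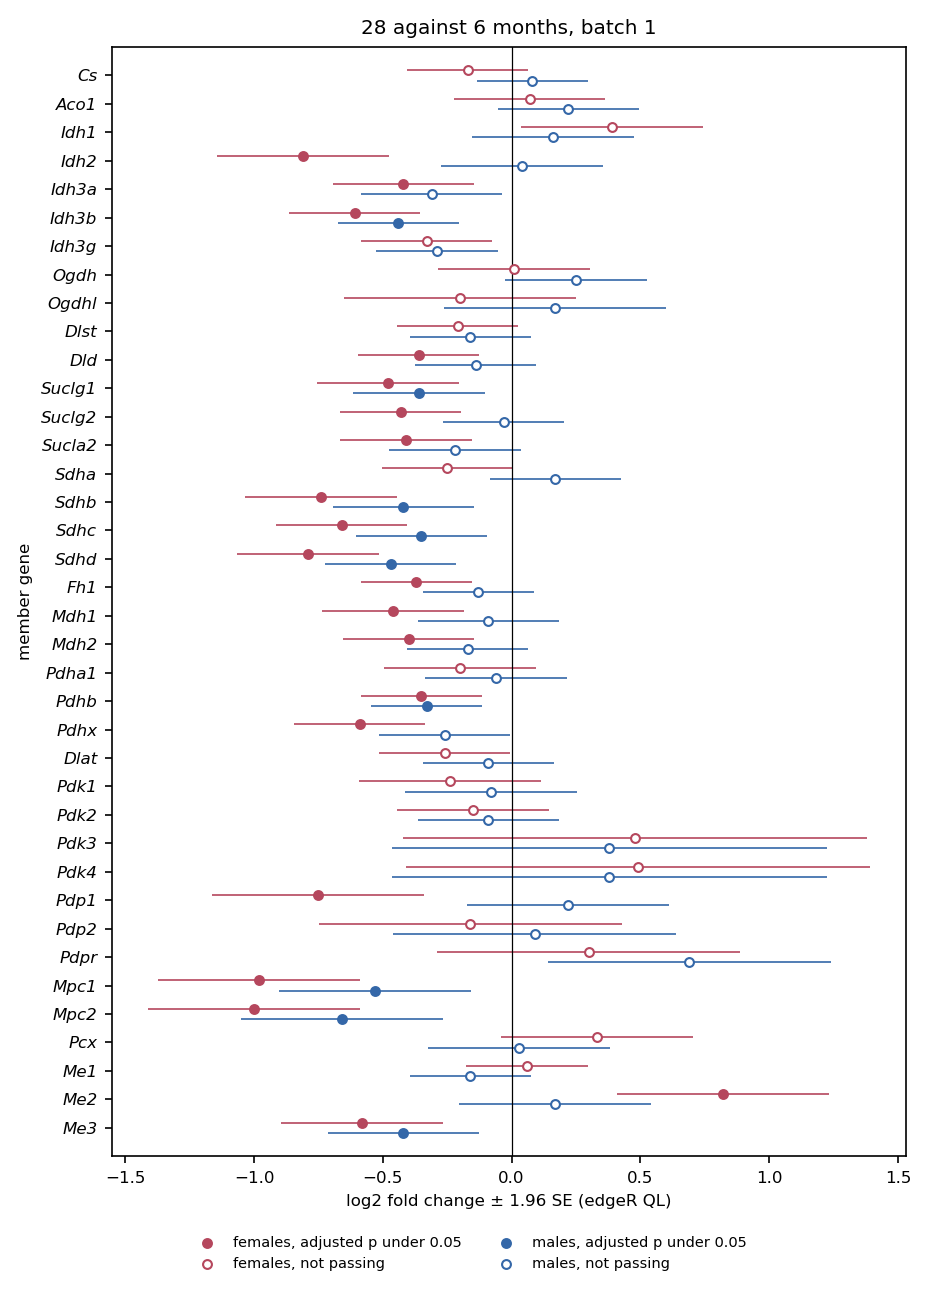
Log2 fold change of each member at 28 against 6 months in batch 1 (horizontal axis, bars ± 1.96 standard errors, edgeR QL), females in red and males in blue, with filled points at an adjusted p under 0.05. Most filled points lie left of 0, with Mpc1 and Mpc2 farthest left, and the filled point right of 0 is Me2 in females.

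The steps from citrate to 2-oxoglutarate are carried out by Cs, the cytosolic aconitase Aco1 and the isocitrate dehydrogenases. Idh3b, a subunit of the NAD-dependent isocitrate dehydrogenase of the cycle (ENSMUSG00000027406, chromosome 2, 130279309 to 130284547), stood at 669, 787, 793 and 680 CPM in the 4 females at 6 months and at 353 to 675 CPM (median 439) in the 6 at 28 months. In males it ran from 637 to 896 CPM (median 794) at 6 months and stood at 608, 602, 546, 562 and 561 CPM at 28 months. The highest 28-month female exceeded the lowest 6-month female by little, and in males the groups did not overlap. Idh3b fell by 0.61 (SE 0.13, edgeR QL adjusted p = 0.00068) in females and by 0.44 (SE 0.12, adjusted p = 0.0081) in males.

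The other subunits of that enzyme gave Idh3a -0.42 (edgeR QL adjusted p = 0.03) and Idh3g -0.33 (adjusted p = 0.051) in females. In males they gave -0.31 (adjusted p = 0.11) and -0.29 (adjusted p = 0.088). Idh2 went from 2311 to 3043 CPM in 6-month females to 1137 to 2012 CPM in 28-month females, with no overlap, a fall of 0.81 (SE 0.17, adjusted p = 0.00091), and was at 0.04 (SE 0.16, adjusted p = 0.92) in males. Cs was at -0.17 and 0.08, Aco1 at 0.07 and 0.22 and the cytosolic isocitrate dehydrogenase Idh1 at 0.39 and 0.16 in females and males, and none of these passed.

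The 2-oxoglutarate dehydrogenase complex oxidises the compound that CaAKG supplies. Dld, its dihydrolipoamide dehydrogenase, which the pyruvate dehydrogenase complex shares (ENSMUSG00000020664, chromosome 12, 31331277 to 31351453), stood at 346, 371, 329 and 330 CPM in 6-month females and at 193 to 329 CPM (median 271) in 28-month females. Male values ran from 310 to 476 CPM (median 391) at 6 months and stood at 303, 382, 377, 346 and 368 CPM at 28 months. The female groups nearly separated and the male groups overlapped widely. Dld fell by 0.36 in females (SE 0.12, edgeR QL adjusted p = 0.031) and was at -0.14 in males (adjusted p = 0.48), while Ogdh, Ogdhl and Dlst passed in neither sex.

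Succinyl-CoA ligase makes succinate and a nucleoside triphosphate, and all 3 of its genes fell in females. Suclg1, the alpha subunit (ENSMUSG00000052738, chromosome 6, 73248382 to 73276911), stood at 246, 275, 327 and 240 CPM at 6 months and at 148 to 258 CPM (median 183) at 28 months in females. In the males, values ran from 250 to 390 CPM (median 335) at 6 months and stood at 257, 278, 238, 239 and 242 CPM at 28 months. The older groups were lower on balance and both pairs of groups overlapped. Suclg1 fell by 0.48 (SE 0.14, edgeR QL adjusted p = 0.0096) in females and by 0.36 (SE 0.13, adjusted p = 0.049) in males. The beta subunits Suclg2 and Sucla2 fell by 0.43 and 0.41 in females and were at -0.03 and -0.22 in males.

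Succinate dehydrogenase, which is also complex II of the respiratory chain, has 4 subunits, of which Sdhb, Sdhc and Sdhd fell in both sexes. Sdhd, a membrane anchor (ENSMUSG00000000171, chromosome 9, 50596357 to 50603812), stood at 293, 357, 511 and 332 CPM in 6-month females and at 169 to 271 CPM (median 205) in 28-month females. Its level in males ran from 305 to 492 CPM (median 386) at 6 months and stood at 294, 301, 267, 274 and 287.5 CPM at 28 months. Neither pair of groups overlapped, and the highest value was in the library labelled 6-month female replicate 3, which went against its sex label. Sdhd fell by 0.79 (SE 0.14, edgeR QL adjusted p = 0.00012) in females and by 0.47 (SE 0.13, adjusted p = 0.009) in males. Sdhb, the iron-sulfur subunit, fell by 0.74 and 0.42 and Sdhc, the other anchor, by 0.66 and 0.35. Sdha, the flavoprotein that oxidises succinate, was at -0.25 (adjusted p = 0.17) in females and 0.17 (adjusted p = 0.42) in males.

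Fumarase and the malate dehydrogenases fell in females and passed in no male comparison at 28 months. Fumarase and the mitochondrial malate dehydrogenase Mdh2 close the cycle, while Mdh1 is cytosolic. Fh1 (ENSMUSG00000026526, chromosome 1, 175600374 to 175625635) stood at 342, 325, 311 and 297 CPM in 6-month females and at 178 to 320 CPM (median 233) in 28-month females. In males it ran from 286 to 390 CPM (median 355) at 6 months and stood at 313, 326, 312, 310 and 318 CPM at 28 months. Both pairs of groups overlapped, and 28-month female replicates 12 and 13 lay within the 6-month range. Fh1 fell by 0.37 (SE 0.11, edgeR QL adjusted p = 0.014) in females and was at -0.13 (adjusted p = 0.46) in males. Mdh1 and the mitochondrial Mdh2 fell by 0.46 and 0.40 in females and were at -0.09 and -0.17 in males.

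Of the pyruvate dehydrogenase subunits, Pdhb, the beta subunit of the first enzyme, fell in both sexes, by 0.35 in females and 0.33 in males. Pdhx, which anchors Dld in the complex (ENSMUSG00000010914, chromosome 2, 103021075 to 103073513), stood at 85.3, 96.2, 106 and 84.9 CPM in 6-month females and at 46.6 to 87.2 CPM (median 56.05) in 28-month females. Male values ran from 84.4 to 131 CPM (median 117) at 6 months and stood at 79.6, 93.9, 98.4, 97.5 and 96.1 CPM at 28 months. Only 28-month female replicate 13 lay within the female 6-month range. Pdhx fell by 0.59 (SE 0.13, edgeR QL adjusted p = 0.0016) in females and was at -0.26 (adjusted p = 0.15) in males. Pdha1 was at -0.20 and -0.06 and Dlat, the acetyltransferase core, at -0.26 and -0.09, none of which passed.

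None of the 4 pyruvate dehydrogenase kinases passed in either sex. Pdk1 (ENSMUSG00000006494, chromosome 2, 71873224 to 71903858) stood at 165, 178, 139 and 161 CPM in 6-month females and at 104 to 178 CPM (median 128) in 28-month females. It ran from 169 to 235 CPM (median 190) in 6-month males and stood at 123.8, 157, 231, 216.5 and 210 CPM in 28-month males. The groups overlapped in both sexes, with log2 changes of -0.24 (SE 0.18) and -0.08 (SE 0.17). Pdk4, which fasting and fatty acids are known to induce, spread widely, at 1943, 804, 234 and 635 CPM in 6-month females and 552 to 1937 CPM (median 1195) in 28-month females. Its log2 changes were 0.49 (SE 0.46, edgeR QL adjusted p = 0.48) in females and 0.38 (SE 0.43, adjusted p = 0.62) in males. Pdk2 was at -0.15 and -0.09 and Pdk3 at 0.48 and 0.38.

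Pdp1, a catalytic subunit of pyruvate dehydrogenase phosphatase (ENSMUSG00000049225, chromosome 4, 11958184 to 11966452), stood at 41.7, 80.7, 97.4 and 63.2 CPM in 6-month females and at 36.9 to 46.3 CPM (median 42.9) in 28-month females. In the males, values ran from 35.9 to 58.5 CPM (median 52.8) at 6 months and stood at 44.45, 61.9, 64.6, 65.3 and 54.7 CPM at 28 months. The 28-month females were low and close together, and 6-month female replicate 1 lay among them. Pdp1 fell by 0.75 (SE 0.21, edgeR QL adjusted p = 0.0093) in females and was at 0.22 (adjusted p = 0.52) in males. Without 6-month female replicate 3 it was at -0.53 (adjusted p = 0.13). Pdp2, the other catalytic subunit, was at -0.16 and 0.09 and Pdpr at 0.30 and 0.69, none of which passed.

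Mpc1 and Mpc2, which together form the pyruvate carrier, had the largest falls of the members in females. Mpc1 (ENSMUSG00000023861, chromosome 17, 8282904 to 8297661) stood at 353, 570, 937 and 489 CPM in 6-month females and at 224 to 410 CPM (median 275) in 28-month females. Its level in males ran from 420 to 680 CPM (median 522) at 6 months and stood at 402, 406, 338, 358 and 376 CPM at 28 months. The male groups did not overlap, while 28-month female replicate 13 exceeded 6-month female replicate 1. Mpc1 fell by 0.98 (SE 0.20, edgeR QL adjusted p = 0.00071) in females and by 0.53 (SE 0.19, adjusted p = 0.047) in males. Without the 14 doubted libraries the female change was -0.53 (adjusted p = 0.09). Mpc2 fell by 1.00 (SE 0.21, adjusted p = 0.00076) and 0.66 (SE 0.20, adjusted p = 0.015), and without those libraries by 0.87 and 0.73, which passed in both sexes. Pcx, pyruvate carboxylase, was at 0.33 (adjusted p = 0.21) and 0.03 (adjusted p = 0.96).

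Me3, the mitochondrial NADP-dependent malic enzyme, fell by 0.58 (edgeR QL adjusted p = 0.0069) in females and by 0.42 (adjusted p = 0.045) in males. Me2 (ENSMUSG00000024556, chromosome 18, 73769903 to 73815449), the only member that rose at 28 months, stood at 4.01, 3.98, 3.09 and 4.50 CPM in 6-month females and at 4.21 to 14.5 CPM (median 5.66) in 28-month females. In males it ran from 2.98 to 6.60 CPM (median 3.78) at 6 months and stood at 5.37, 4.36, 4.46, 4.58 and 4.44 CPM at 28 months. The value of 14.5 CPM belonged to 28-month female replicate 10, where markers of neutrophils were abundant, and the other 5 did not exceed 6.35 CPM. Me2 rose by 0.82 (SE 0.21, adjusted p = 0.0039) in females, was at 0.46 (adjusted p = 0.067) without that library, and was at 0.17 (adjusted p = 0.62) in males. Me1, the cytosolic malic enzyme, was at 0.06 and -0.16.

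**Figure D2:**
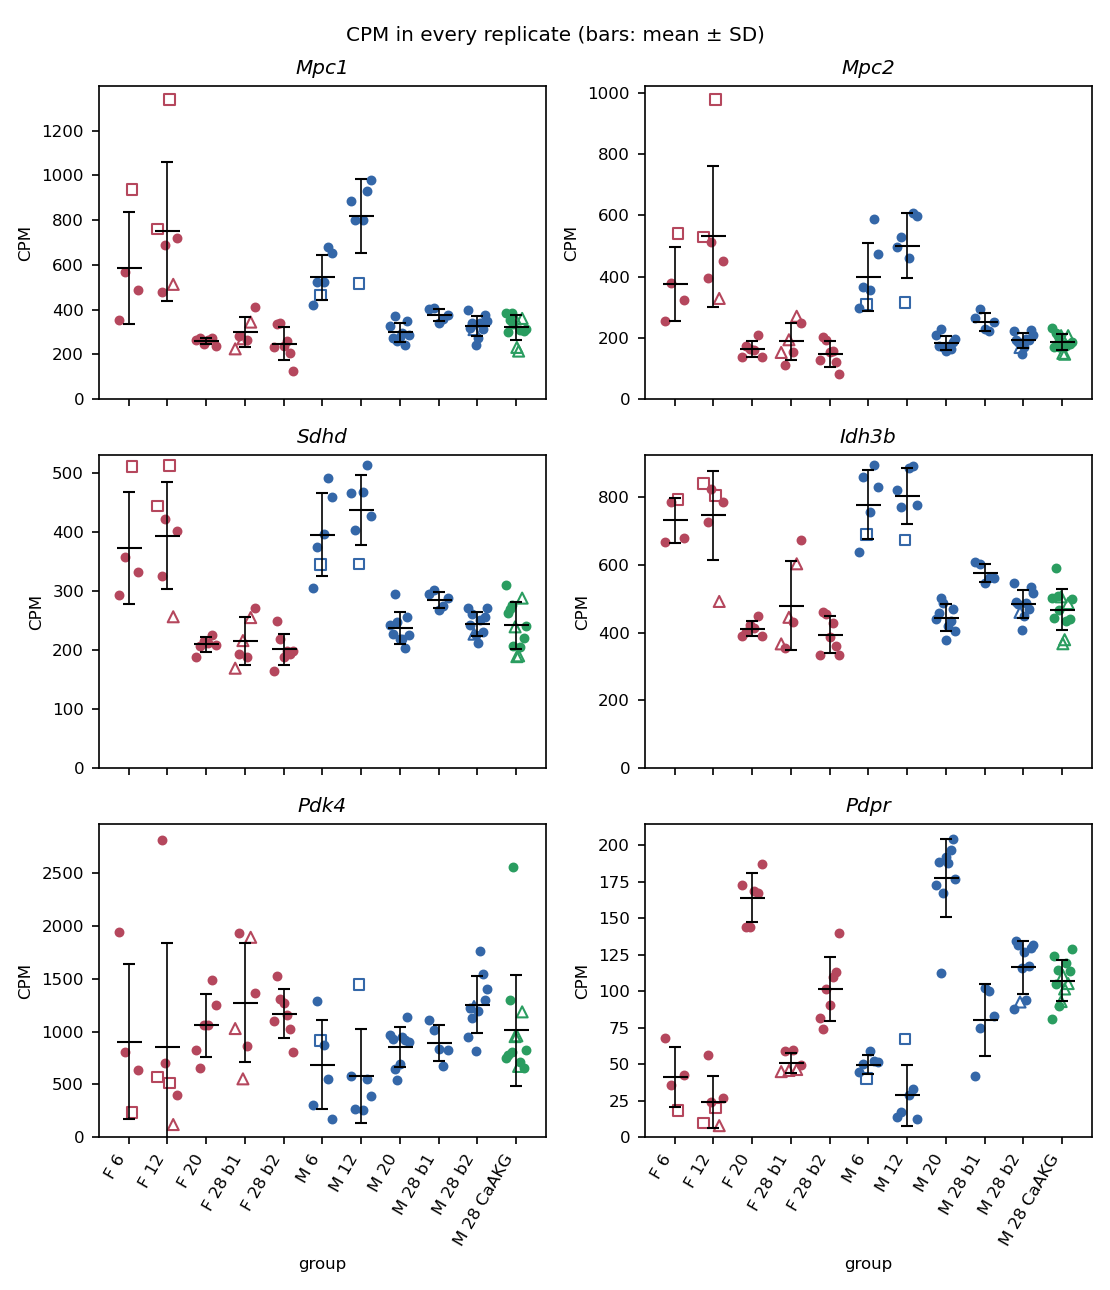
CPM of 6 members in every replicate (vertical axes, linear from 0) by group (F or M, age in months, b1 and b2 for the batches at 28 months), with the mean and SD; open squares are libraries against their sex label and open triangles those with skin or marrow transcripts. Mpc1, Mpc2, Sdhd and Idh3b stand lower at 20 and 28 months than at 6 and 12 months, Pdk4 scatters within groups, and Pdpr is highest at 20 months, at 112.7 to 204 CPM.

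The number of members called at 28 months depended on the libraries and settings used. In females the count was 10 in all without 6-month female replicate 3, and without the 14 doubted libraries 8 fell and 0 rose: Idh2, Idh3a, Idh3b, Sdhb, Sdhc, Sdhd, Mdh1 and Mpc2. Fitted with only the 2 female groups, 0 members and 0 genes of all passed, with 14 members at an unadjusted p of 0.05. In males the count fell to between 2 and 5 without any of 28-month replicates 11, 14 and 15 or 6-month replicates 2, 5 and 6, and was 12 without the 14 doubted libraries, with 11 lower and Pdpr higher. The changes also went with transcript length, with a Spearman correlation across the members of 0.38 in females and 0.46 in males (0.29 and 0.32 across all genes, which are not independent replicates). With offsets for length and GC content, under which the median of all genes was -0.04 and -0.09 at 28 months and -0.09 and -0.10 at 20 months in females and males, 10 members fell and Me2 rose in females at 28 months, and Mpc2 and Me3 fell in males.

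The sexes were compared by the interaction of sex and age, given as the male change minus the female change. By edgeR QL 0 of 38 members passed, where 0.329% of all genes did (0.22% lower, 0.11% higher), with 5 members at an unadjusted p of 0.05 and 1 called by DESeq2. Those 5 were Idh2 at 0.85 (SE 0.24, adjusted p = 0.078), Pdp1 at 0.97 (SE 0.29, adjusted p = 0.11), Sdha at 0.42, Suclg2 at 0.40 and Me2 at -0.65. Without 28-month female replicate 13 the count was 1. A difference between the sexes was not shown for any member by edgeR QL with all libraries.

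At 20 against 6 months, the same pyruvate carrier and succinate dehydrogenase genes were lower in both sexes, and Pdpr and Ogdh were higher. In females 15 members fell and 2 rose, where 36.0% of all genes passed (17.8% lower, 18.2% higher), and in males 16 fell and 7 rose, where 44.6% of all genes passed (22% lower, 22.6% higher). The members' median log2 changes were -0.08 and -0.14, beside 0.00 and 0.02 over all genes. Of these calls 14 falls and 2 rises were shared by the sexes, and 9 members were lower in all 4 comparisons of 28 or 20 with 6 months, which share their 6-month libraries: Idh3b, Suclg1, Sdhb, Sdhc, Sdhd, Pdhb, Mpc1, Mpc2 and Me3.

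Mpc1 ran from 239 to 275 CPM (median 265) in 20-month females and from 241 to 373 CPM (median 285) in 20-month males, below every 6-month library of the same labelled sex. It fell by 1.18 (SE 0.20, edgeR QL adjusted p = 2.1e-06) and by 0.87 (SE 0.16, adjusted p = 8.1e-06). Mpc2 fell by 1.2 and 1.12, and its 20-month values of 137 to 208 CPM in females and 156 to 228 CPM in males also lay below all 6-month values. The succinate dehydrogenase subunits Sdhb, Sdhc and Sdhd fell by 0.95, 0.69 and 0.83 in females and by 0.87, 0.61 and 0.74 in males, whereas Sdha was at 0.06 and 0.24 and did not pass. Idh3b fell by 0.83 and 0.81 and Suclg1 by 0.67 in each sex. Also lower in both sexes were Idh3a (-0.39 in each), Idh3g (-0.55 in females, -0.49 in males), Sucla2 (-0.39, -0.35) and Fh1 (-0.4, -0.35). The same held for Mdh2 (-0.5, -0.41), Pdhb (-0.35, -0.52) and Me3 (-0.86, -0.58). Idh2 (-0.53) passed as lower in females only, and Mdh1 (-0.31) and Pdhx (-0.34) in males only.

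Pdpr (ENSMUSG00000033624, chromosome 8, 111094630 to 111137074) showed the largest change of any member in these comparisons. It stood at 68.2, 35.9, 18.3 and 42.6 CPM in 6-month females and at 144 to 187 CPM (median 168) in 20-month females, and ran from 40.3 to 59.03 CPM (median 51.03) and 112.7 to 204 CPM (median 188) in males of those ages. All 20-month values lay above all 6-month values. Pdpr rose by 1.99 (SE 0.32, edgeR QL adjusted p = 6e-07) in females and by 1.84 (SE 0.26, adjusted p = 1.1e-08) in males. Ogdh, the first enzyme of the 2-oxoglutarate dehydrogenase complex, rose by 0.53 and 0.54. In males Aco1 (0.42), Idh1 (0.42), Pdp1 (0.47), Pdp2 (0.74) and Pcx (0.44) rose as well; in females these were at 0.34, 0.24, -0.22, 0.35 and 0.08 and did not pass.

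The 20-month changes also followed transcript length, with Spearman correlations across the members of 0.56 in females and 0.58 in males, beside 0.55 and 0.50 across all genes. The median longest transcript was 2229 and 2303 bases for members that fell and 4532.5 and 4148 bases for those that rose. With offsets for length and GC content, 8 members fell and Pdpr rose in females, and 14 fell and Pdpr and Idh1 rose in males. Pdpr was then at 1.53 and 1.33, and Mpc2 at -1.48 and -1.40, while Ogdh no longer passed at 0.30 (edgeR QL adjusted p = 0.32) and 0.29 (adjusted p = 0.16).

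**Figure D3:**
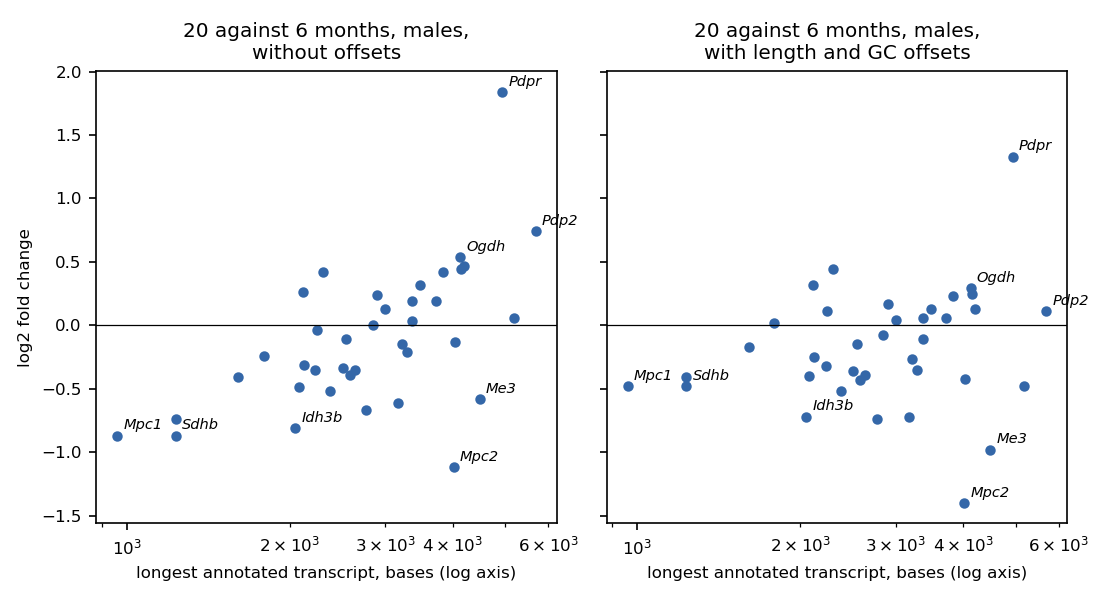
Log2 fold change of the 38 members at 20 against 6 months in males (vertical axis) by the length of the longest annotated transcript (horizontal log axis, bases), fitted without and with length and GC offsets. Without offsets the short Mpc1 and Sdhb lie low and the long Pdpr and Pdp2 high. Against that order, Mpc2 (4015 bases) lies lowest, at -1.12, and Me3 (4485 bases) is at -0.58. With offsets Pdpr is at 1.33 and Mpc2 at -1.40.

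Markers of other cells also differed between these ages, some of them through few libraries. The summed level of 12 adipocyte markers had a median of 3520 CPM (range 3210 to 4970) in 6-month males, 6890 CPM (6150 to 7510) in 20-month males and 6450 CPM (5600 to 6740) in 28-month males of batch 1; 8 of 12 rose and 1 fell at 20 months and 6 rose at 28 months in males. Of all genes tested in males, 22.6% were higher and 22% lower at 20 months, and 6.76% and 9.38% at 28 months. In females the adipocyte medians were 5300, 7040 and 6330 CPM at 6, 20 and 28 months. The 8 endothelial markers went from a median of 141 CPM (95.5 to 195) to 538 CPM (449 to 653) and 340 CPM (225 to 454) in males, and from 166 CPM (135 to 325) to 505 CPM (436 to 594) and 315 CPM (93.1 to 402) in females. The 6 smooth muscle markers went from 183 CPM (157 to 232) to 688 CPM (610 to 815) and 444 CPM (351 to 576) in males, and from 218 CPM (146 to 367) to 669 CPM (634 to 712) and 311 CPM (172 to 437) in females. In females at 28 months all 10 neutrophil markers rose, with sums of 2.66 to 1530 CPM beside 0.768 to 2.53 CPM at 6 months. The neutrophil sums were 1530, 507 and 61.1 CPM in 28-month replicates 10, 12 and 9, and 2.66 to 5.14 CPM in the others. In the same comparison 4 of 12 keratinocyte markers rose, with sums of 3.25 to 11400 CPM beside 3.9 to 80.4 CPM. The keratinocyte sum of 11400 CPM was that of replicate 8 alone, and the other 28-month sums were 3.25 to 7.88 CPM. Of 10 slow-fibre markers 3 fell, with sums of 31700 to 49000 CPM beside 27800 to 49400 CPM. Of 10 fast-fibre markers 1 fell and 1 rose, with sums of 27300 to 76200 CPM beside 24000 to 38900 CPM. Of all genes tested in females at 28 months, 9.04% were lower and 9.91% higher. The sum of 76200 CPM, the highest of all replicates, was that of 28-month female batch 1 replicate 9, which also had the lowest mitochondrial share. Without that library 16 members were called at 28 against 6 months in females, Idh3a, Dld, Sucla2 and Pdhb no longer passing. The 6 tendon markers summed to 187 to 546 CPM in females at 6 months and 578 to 805 CPM at 20 months, and to 99.2 to 240 CPM and 294 to 627 CPM in males. The part of these shifts in the changes of the members was not tested.

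At 12 against 6 months in females, 0 members passed by edgeR QL, where 0.231% of all genes did (0.192% lower, 0.0384% higher), with 6 at an unadjusted p of 0.05 and 0 by DESeq2 and by limma-voom. In males 3 fell and 2 rose, where 9.85% of all genes passed (6.82% lower, 3.02% higher): Dlst, the succinyltransferase of the 2-oxoglutarate dehydrogenase complex, at -0.33, Pdk1 at -0.55, Pdpr at -0.80, Pdp1 at 0.79 and Mpc1 at 0.59. Without the libraries against their sex label Pdpr was at -1.34 (edgeR QL adjusted p = 4.5e-05). In males Mpc1 and Pdpr thus moved at 12 months in the direction opposite to that at 20 months. They passed in only 2 and 1 of the 6 fits without a single 6-month male. In females Mpc1 was at 0.35 and Pdpr at -0.78 at 12 months, and neither passed (edgeR QL adjusted p = 0.42 and 0.23). With length and GC offsets 0 of the male calls passed, and without any single 6-month male the count was 2 or 3.

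**Figure D4:**
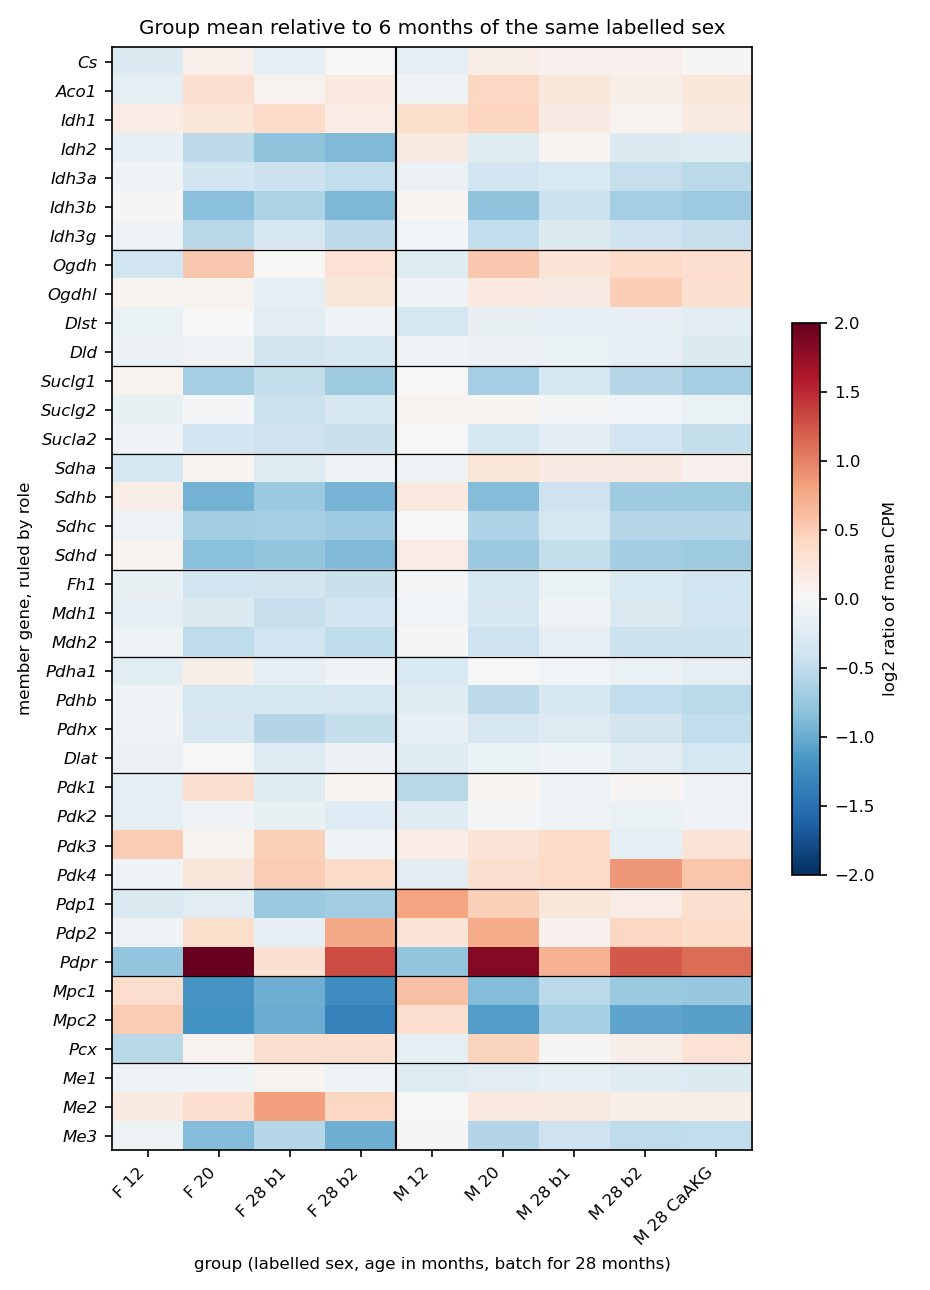
Log2 ratio of the group mean CPM to the 6-month mean of the same labelled sex (colour scale from -2 to 2), for each member (rows, ruled by role) and group (columns). The blue rows at 20 and 28 months include Idh3b, Suclg1, Sdhb, Sdhc, Sdhd, Mpc1, Mpc2 and Me3, and Pdpr is the darkest red at 20 months.

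From 20 to 28 months in batch 1, Pdpr fell by 1.69 (SE 0.27, edgeR QL adjusted p = 4.2e-06) in females and fell by 1.15 (SE 0.27, adjusted p = 0.0016) in males. It ran from 44.9 to 59.9 CPM in 28-month females and stood at 41.8, 74.8, 102, 99.8 and 82.8 CPM in 28-month males, with all values below those at 20 months. In females 7 members fell and 1 rose, where 29.9% of all genes passed (12.6% lower, 17.3% higher): Ogdh (-0.53), Dld (-0.29), Suclg2 (-0.40), Sdha (-0.32), Pdk1 (-0.58), Pdp1 (-0.52) and Pdpr fell and Me2 (0.48) rose. Without 28-month female replicate 10 the count was 5 and Me2 was at 0.12. Without the 14 doubted libraries, Ogdh (-0.43) and Pdpr (-1.51) were the only 2 of these 8 that passed, and Me2 was at 0.04 (adjusted p = 0.89); Aco1 (-0.47), Dlat (-0.35) and Pdp2 (-0.97) then fell and Me1 (0.39) and Me3 (0.52) rose. In males Pdpr fell and Idh3b (0.37) and Sdhb (0.45) rose, where 17.0% of all genes passed (8.78% lower, 8.25% higher). With length and GC offsets 0 members passed in males, Pdpr then being at -0.90 (adjusted p = 0.051), and limma-voom called 18.

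Among 28-month control mice of batch 2, males were compared with females. Me3 was higher in males by 0.61 (SE 0.12, edgeR QL adjusted p = 0.0024), with no overlap of the groups, and Dld by 0.35 (SE 0.10, adjusted p = 0.043). Pdp2 was lower in males, at -0.83 (SE 0.22, adjusted p = 0.042). These 3 of 38 passed where 1.3% of all genes did (0.379% lower, 0.917% higher), and 25 members passed an unadjusted p of 0.05. The members' median was 0.23, and limma-voom called 21. Suclg1 at 0.38 and Pdhx at 0.37 came close to the threshold but did not pass (edgeR QL adjusted p = 0.05 and 0.052). The count was 1 without any of male replicates 1, 2, 3, 4, 8, 9 or 10 and 5 without male replicate 5 or 6.

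CaAKG feeding was compared with control feed in 28-month males of batch 2, a test of whether supplying 2-oxoglutarate goes with altered expression of the genes that make and use it. By edgeR QL 0 of 38 passed, where 0.0659% of all genes did, and 0 members were under an unadjusted p of 0.05; DESeq2 and limma-voom also called 0. The members' median log2 change was -0.04, beside 0.01 over all genes.

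The smallest p of the members were those of Dld, Pdk3 and Fh1. Dld ran from 303 to 406 CPM (median 343) in 10 controls and from 261 to 424 CPM (median 316) in 12 mice on CaAKG, a log2 change of -0.13 (SE 0.08, edgeR QL adjusted p = 0.88). Pdk3 was at 0.45 (SE 0.30, adjusted p = 0.90), on means of 1.555 CPM in controls and 2.125 CPM on CaAKG. Fh1 ran from 251 to 314 CPM (median 282) and from 227 to 311 CPM (median 261), at -0.10 (SE 0.07, adjusted p = 0.93). The groups overlapped for each of the 3.

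The member genes of the enzymes that make or use 2-oxoglutarate had intervals within 0.5 of 0 on the log2 scale. Idh2 went from a mean of 1662 to 1674 CPM, at 0.01 (95% interval -0.22 to 0.24). The subunits Idh3a, Idh3b and Idh3g of the enzyme that makes it in the cycle were at -0.08, -0.05 and -0.04. Idh1 was at 0.12 (95% interval -0.11 to 0.34). Of the complex that uses it, Ogdh was at -0.04 (95% interval -0.23 to 0.15) and Dlst at -0.06 (-0.22 to 0.10). Ogdhl was at -0.18 (-0.47 to 0.12). For 35 of 38 members the 95% interval lay within 0.5 of 0 on the log2 scale. The 3 with wider intervals were Pdk3 (-0.14 to 1.04), Pdk4 (-0.90 to 0.28) and Pdpr (-0.50 to 0.27).

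Pdk4 ran from 820 to 1758 CPM (median 1230) in controls and from 656 to 2555 CPM (median 813) on CaAKG. Most CaAKG values lay below the control median, 1 lay above all controls, and the log2 change was -0.31 (SE 0.30, edgeR QL adjusted p = 0.98). Among the 10 neutrophil markers 7 rose with CaAKG, with sums of 0.892 to 887 CPM beside 0.761 to 5.07 CPM in controls. Of all genes tested, 0.0659% were higher with CaAKG. The CaAKG group includes the libraries named above as holding skin or marrow transcripts, and their part in this rise was not tested. Without the libraries that held skin or marrow transcripts, 0 members passed.

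**Figure D5:**
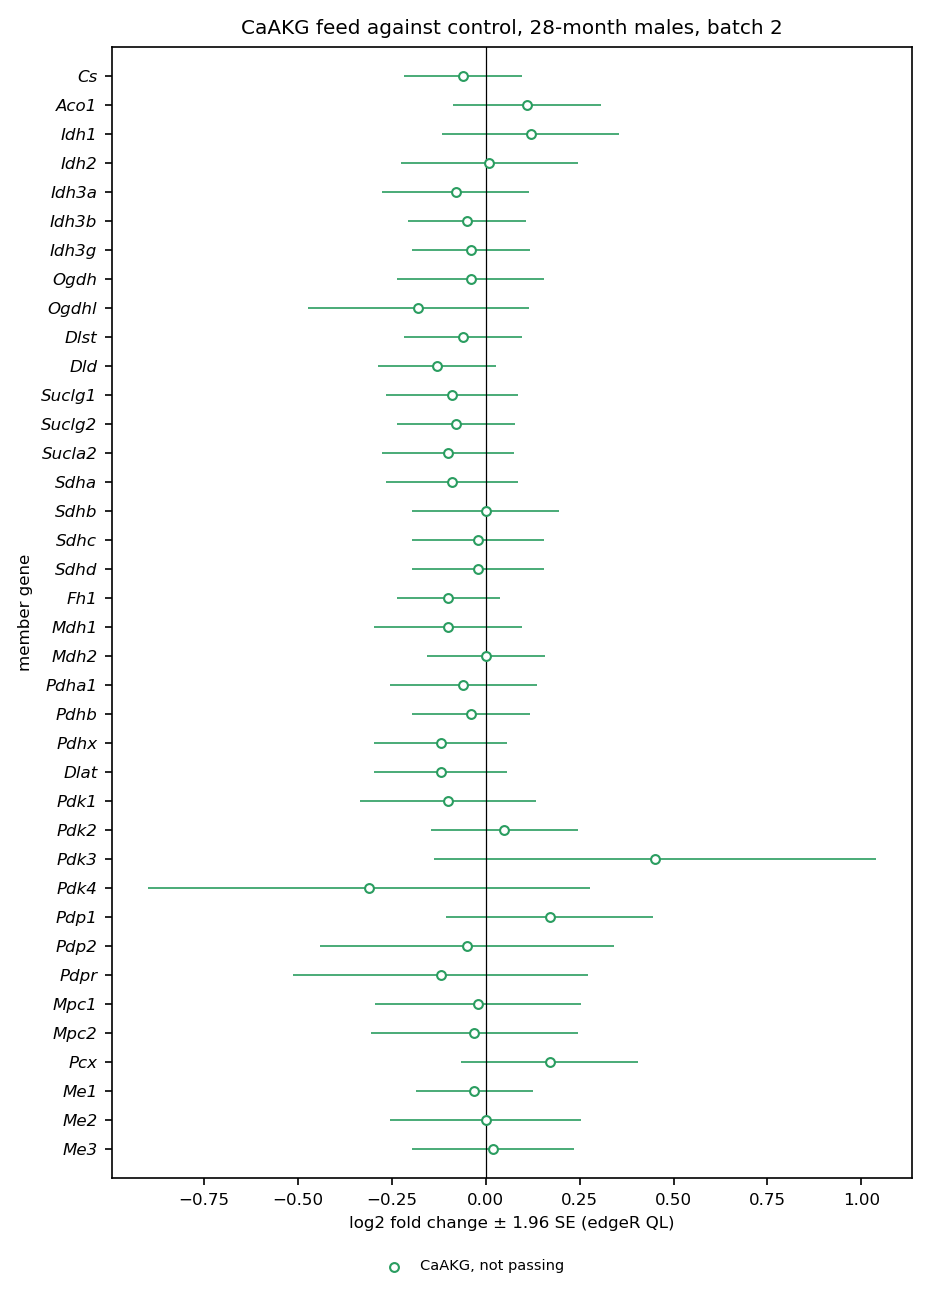
Log2 fold change of each member with CaAKG against control feed in 28-month males of batch 2 (horizontal axis, bars ± 1.96 standard errors, edgeR QL). All points are open, as no member passed, and the bars of Pdk3 and Pdk4 are the widest.

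Batch was compared at 28 months in control mice. In males 0 members passed by edgeR QL, where 1.02% of all genes did (0.198% lower, 0.818% higher), with 6 at an unadjusted p of 0.05, 0 by DESeq2 and 7 by limma-voom. In females Pdp2 (0.93) and Pdpr (1.00) were higher and Me3 (-0.40) lower in batch 2, where 19.8% of all genes passed (13.0% lower, 6.75% higher). Age and CaAKG comparisons were each made within a single batch.

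Genes that work beside these members were counted from other lists. Of 48 nuclear subunits of respiratory complexes I, III, IV and V, 47 fell in females and 27 in males at 28 against 6 months, with median log2 changes of -0.72 and -0.47, and 0 rose; of all genes tested, 9.04% and 9.38% were lower. At 20 against 6 months 45 fell in each sex, beside 17.8% of all genes in females and 22% in males. Of 17 genes of lipoylation and iron-sulfur cluster assembly, which make cofactors of the cycle's dehydrogenases and of Sdhb, 14 and 9 fell at 28 months and 16 and 17 at 20 months, with 0 rising. Of 10 mitochondrial carriers tested, 4 and 2 fell at 28 months. Of 7 genes of glutamate and aspartate entry, 1 fell and 1 rose in females and 0 in males. Of 5 lactate genes, 1 and 3 fell. With CaAKG 0 genes of these lists passed.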

How the data were processed

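Soleus RNA was measured in 78 libraries. Reads were aligned with STAR 2.7.11b and quantified with RSEM 1.3.3 on mm10, per the submitters' processing notes. The deposited values are RSEM expected counts per gene ID, made by the authors; 8.99% of them were not whole (tolerance 1e-06), and all were rounded here. For annotation release and strand setting the sources used here name nothing; symbols and positions came from GENCODE M21 (35298 of 36904 IDs). A further 55 columns fit no label of a sample and stayed unused.

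CPM were computed here with TMM factors. The 2 libraries carrying the same animal tag were summed, which left 77 replicates in 11 groups. Genes were filtered with filterByExpr (minimum count 10, minimum total 15), fitted in edgeR 4.0.16 with 1 mean per group and tested by the quasi-likelihood test, with Benjamini-Hochberg adjustment over 18218 genes and a threshold of 0.05. Intervals are 1.96 standard errors each side. The labels do not say that each library is a separate animal throughout, so p-values measure the spread between these samples.

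The alternatives comprised limma-voom using quality weights (limma 3.58.1), DESeq2 1.42.0, a minimum count of 50, no filter at all, RLE size factors, leaving out mitochondrial genome counts, offsets for length and GC content (known for 97.5% of genes tested), a replicate block, the tagged libraries apart, the compared groups alone, and libraries left out. Leaving out the doubted libraries was chosen after seeing the data. The members and lists were chosen with earlier results of these data known. Named genes are the members past the threshold at 28 or 20 against 6 months or with CaAKG, the 3 with the smallest p where none passed, and all members of small roles. Values of each replicate are given for the member of each role with the smallest p at 28 months. Some members overlap exons of a gene on the other strand (Idh3b, Mdh1, Pdha1, Pdpr, Mpc1, Me1 and Me3), and Cs, Me1, Me3, Pdha1, Pdhb and Suclg2 have near copies, so their counts are less certain. Some items are not reported here.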

Additional observations from a re-analysis of the deposited data

Results flagged for a closer look

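The values of 1 member in 1 group of 4 to 10 replicates were taken as a set. Of 100 sets checked, 7 held a library far from the others, and chance flags about 1 in 20. In 12-month female replicate 5, Idh3b stood at 492.1 CPM beside 727.0 to 841.3 CPM in the others, and Pdhx at 50.28 CPM beside 87.34 to 108.0 CPM; that library also held skin or marrow transcripts. Mpc1 stood at 1339 CPM in 12-month female replicate 4, which went against its sex label, beside 477.1 to 760.9 CPM. Pdhx stood at 79.56 CPM in 28-month male batch 1 replicate 11 beside 93.91 to 98.38 CPM, and Me2 at 5.371 CPM in the same library beside 4.362 to 4.584 CPM. Me2 also stood at 14.54 CPM in 28-month female batch 1 replicate 10 beside 4.214 to 6.346 CPM, and at 6.597 CPM in 6-month male replicate 1 beside 2.983 to 4.318 CPM.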

How the results depend on the processing

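No called member changed sign under any alternative run, and with CaAKG 0 members passed under every one. The counts of members called moved by over 1.5 times as follows; unless a value above shows it, the cause was not tested. At 28 against 6 months in females the 20 calls became 11 with length and GC offsets, 13 when libraries holding skin or marrow transcripts were left out, 12 when those against their sex label were, 8 when both sets were, 0 with the compared groups alone and 10 to 22 without single replicates. In males the 9 became 17 with limma-voom, 3 with no filter, 2 with the offsets and 2 to 12 without single replicates. At 20 against 6 months in females the 17 became 9 with the offsets. For 20 against 6 months, in both sexes, 6-month replicates were left out singly and 20-month ones were not. At 12 against 6 months in males the 5 became 12 with limma-voom, 2 with no filter, 0 with the offsets, 3 with the tagged libraries apart, 10 without both sets of doubted libraries, 2 with the compared groups alone and 2 to 3 without single 6-month replicates (12-month ones were not left out singly). At 28 against 20 months in females the 8 became 5 with limma-voom, 4 with no filter, 2 with the offsets, 5 with the compared groups alone and 5 to 12 without single 28-month replicates (20-month ones were not left out singly). In males the 3 became 9 with DESeq2, 18 with limma-voom, 6 at a minimum count of 50, 0 with the offsets, 5 without either set of doubted libraries, 9 without both and 15 with the compared groups alone. Between the sexes at 28 months the 3 became 6 with DESeq2, 21 with limma-voom, 1 with no filter, 5 at a minimum count of 50, 1 with the offsets, 6 when libraries holding skin or marrow transcripts were left out, 7 when both sets were, 9 with the compared groups alone and 1 to 5 without single male replicates (females were not left out singly). The interaction gave 1 with DESeq2 and 0 to 1 without single replicates. Batch in males gave 7 with limma-voom and 5 with the compared groups alone, and in females 1 with the offsets, 6 without both sets, 1 with the compared groups alone and 2 to 4 without single batch 1 replicates (batch 2 ones were not left out singly).

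Replicate numbers do not pair the samples: deviations of same-numbered replicates correlated at -0.18 to 0.17, and the groups at 28 and 6 months share no numbers. With the replicate block 2 members were called at 28 against 6 months in males, 13 at 28 against 20 months in females, 1 in males and 1 between the sexes at 28 months; in the other comparisons the block moved the count by no more than 1.5 times. Depth limits the members at a few CPM most: Pdk3 had a within-group SD of 1.36 on the log2 scale.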
